A study of Mus musculus with 30 samples.

Results

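The mevalonate arm of sterol synthesis is the set of enzymes that carry acetyl-CoA to squalene. The genes described here are Acat2, Hmgcs1, Mvk, Pmvk, Mvd, Idi1, Fdps, Fdft1 and Ggps1, chosen by name as protein-coding genes of the deposited annotation, and all 9 were found among the 30952 genes of the expression table. In this arm acetyl-CoA units are built up to mevalonate, which is phosphorylated and decarboxylated to isoprene units, and joined to farnesyl diphosphate, from which Fdft1 makes squalene and Ggps1 makes the geranylgeranyl group used to prenylate proteins. The genes of the arm are known targets of the transcription factor SREBP-2, which is activated when sterols in the cell run low. In the central nervous system cholesterol is made locally, and astrocytes are known as a main source of it.

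RNA was sequenced from astrocytes and microglia sorted from the spinal cords of female C57BL/6 mice. Naive mice gave 4 libraries of each cell type. Mice with experimental autoimmune encephalomyelitis (EAE), a myelin-directed autoimmune disease induced with the MOG35-55 peptide at 8 to 10 weeks of age, were dosed by gavage 2 times daily for 3 days from a clinical score of about 1. The EAE-vehicle group (6 libraries of each cell type) received 20% Captisol, and the EAE-RIPK1inh group (5 of each) received the RIPK1 kinase inhibitor GSK'547 at 50 mg/kg. No naive group received vehicle or inhibitor, so an effect of the inhibitor without disease was not measured. For the same reason, disease and vehicle dosing cannot be told apart in a comparison of EAE-vehicle with naive mice. By the paper's methods EAE induction also used complete Freund's adjuvant and pertussis toxin, which cannot be told apart from the disease either. Astrocytes had been gated as GLAST-positive cells without CD11b, CD45 and CD140a, and microglia as CX3CR1-positive CD11b-positive cells of intermediate CD45.

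Values are log2 FPKM, an abundance per length of transcript, normalized by the authors so that every library holds the same distribution. A gene was called higher or lower when its fold change exceeded 1.5 at an unadjusted p under 0.05 in limma. Astrocyte markers averaged 8.30 to 9.64 log2 FPKM in the astrocyte libraries and 0.99 to 2.23 in microglia, and microglia markers averaged 8.04 to 10.9 in microglia and 0.90 to 3.69 in astrocytes. The number of genes with signal ran from 6728 to 22981 over the astrocyte libraries and from 8710 to 20398 over the microglia libraries. The lowest count was that of EAE-vehicle astrocyte replicate 1, in which Acat2, Mvk and Mvd had no signal. Values of genes without signal only reflect their place among tied genes, so the results for astrocytes are also given without that library. In bulk RNA of sorted cells, fewer cells of a type and less RNA per cell cannot be told apart.

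Promoter sequence was available for 7 of the 9 genes, from RefSeq on GRCm38.p6. The 250 bases before the start of 4 of them are shown, 5′ to 3′ on the strand of the gene. Mvd was called in EAE-vehicle against naive astrocytes and, together with Idi1, in EAE-RIPK1inh against EAE-vehicle astrocytes. Hmgcs1 is the only one of the 7 with a match to the sterol regulatory element, and Mvk has the most Y boxes. Capitals mark matches on either strand to the sterol regulatory element (TCACNCCAC), the Y box (CCAAT) and the GC box (GGGCGG). Hmgcs1 lies at chr13:119690101-119690350 (plus strand), Mvk at chr5:114444019-114444268 (plus strand), Mvd at chr8:122443423-122443672 (minus strand) and Idi1 at chr13:8885356-8885605 (plus strand).
Hmgcs1: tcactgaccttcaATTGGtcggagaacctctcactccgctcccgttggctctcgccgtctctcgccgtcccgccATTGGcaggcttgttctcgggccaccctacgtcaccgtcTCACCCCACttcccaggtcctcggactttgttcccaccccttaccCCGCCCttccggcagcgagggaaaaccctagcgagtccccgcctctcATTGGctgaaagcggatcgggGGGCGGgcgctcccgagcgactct
Mvk: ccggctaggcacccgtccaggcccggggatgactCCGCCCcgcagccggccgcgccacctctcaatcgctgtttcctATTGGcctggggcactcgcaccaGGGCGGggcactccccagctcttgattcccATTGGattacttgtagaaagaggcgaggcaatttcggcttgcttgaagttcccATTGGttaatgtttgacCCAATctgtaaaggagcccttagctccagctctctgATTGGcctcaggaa
Mvd: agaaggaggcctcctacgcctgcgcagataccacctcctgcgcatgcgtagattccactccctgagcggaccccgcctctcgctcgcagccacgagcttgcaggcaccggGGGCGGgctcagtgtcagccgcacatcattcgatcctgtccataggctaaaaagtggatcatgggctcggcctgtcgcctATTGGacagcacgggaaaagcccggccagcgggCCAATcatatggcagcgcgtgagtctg
Idi1: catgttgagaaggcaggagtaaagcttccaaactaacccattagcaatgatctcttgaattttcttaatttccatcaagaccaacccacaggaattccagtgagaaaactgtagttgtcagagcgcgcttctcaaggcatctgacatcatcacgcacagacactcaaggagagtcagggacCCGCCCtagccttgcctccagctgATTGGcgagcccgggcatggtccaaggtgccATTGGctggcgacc
The 7 genes have 8 windows, since Pmvk has 2. A Y box was found in 6 of the 8 windows and a GC box in 5, and 34.6% and 45.4% of the 19940 windows of genes in the table held one. The difference from all windows was not tested. The sterol regulatory element was present in 1.02% of those windows, and in Hmgcs1 it began 137 bases before the start. The Mvk window held 5 Y boxes and the Mvd window 2. No match says only that these letters are not in the window searched.

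The clearest feature of the arm was its difference in level between the cell types. In naive mice 6 of the 9 genes were lower in microglia than in astrocytes, and 9.64% of all genes tested were called in that direction. All 6 also had an adjusted p under 0.05, a share that was 5.93% over all genes. The genes were Idi1, Fdft1, Mvd, Mvk, Hmgcs1 and Fdps, and their log2 differences ran from -4.70 to -2.78. Pmvk, Ggps1 and Acat2 were not called. The naive astrocyte libraries also held markers of other cells. Oligodendrocyte markers averaged 5.59 to 6.89 log2 FPKM in them and 1.72 to 2.19 in naive microglia. Neuron markers averaged 4.30 to 5.41 and 0.22 to 0.71. The part of such cells in the difference was not tested.

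Hmgcs1, which makes HMG-CoA, was at 7.71, 6.48, 6.94 and 6.67 log2 FPKM in naive astrocytes and at 3.57, 3.17, 1.84 and 4.74 in naive microglia. The groups did not overlap, and microglia were lower by a log2 difference of -3.62 ± 0.62 (SE; adjusted p = 7.88e-05, limma). Idi1, the isomerase that interconverts the isoprene units, was at 7.25, 7.44, 6.55 and 6.68 in naive astrocytes and at 2.97, 1.97, 1.90 and 2.27 in naive microglia. Its difference of -4.70 ± 0.56 was the largest of the arm (adjusted p = 2.68e-07, limma). Fdft1, squalene synthase, was at 7.09, 5.46, 7.39 and 7.03 in naive astrocytes and at 2.32, 1.39, 1.95 and 3.66 in naive microglia. It differed by -4.41 ± 0.62 (adjusted p = 4.78e-06, limma), again with no overlap.

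The mevalonate kinase Mvk was at 5.15, 4.78, 4.23 and 5.23 log2 FPKM in naive astrocytes and at 1.71, 0.05, 2.40 and 0.20 in naive microglia, with no signal in microglia replicates 2 and 4. Its log2 difference was -3.76 ± 0.90 (adjusted p = 0.00402, limma). Mvd, which decarboxylates the doubly phosphorylated mevalonate, differed by -4.27 ± 1.03 (adjusted p = 0.00433), and Fdps, which makes farnesyl diphosphate, by -2.78 ± 0.73 (adjusted p = 0.00938). The Fdps groups overlapped, since naive microglia replicate 3 reached 5.52 and naive astrocyte replicate 2 was at 4.96. With 4 libraries against 4 the exact two-sided permutation test cannot give a p below 0.0286. A gene whose groups do not overlap reaches that value by construction. The share of all genes without overlap was not computed, so the overlaps only describe these genes.

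Idi1, Fdft1 and Hmgcs1 were also lower in microglia in both EAE groups. In the EAE-vehicle group 5 genes were lower in microglia (10.0% of all genes called lower), and 3 of them, Hmgcs1, Idi1 and Fdft1, had an adjusted p under 0.05 (5.91% of all genes). Mvk was at -1.58 (adjusted p = 0.178, limma) in that group, and its call was lost in 8 of 30 fits that left out 1 library. Without EAE-vehicle astrocyte replicate 1 Mvk was at -2.29 (adjusted p = 0.0131, limma), and Acat2 turned from 0.24 to -0.45 and was not called. In the EAE-RIPK1inh group 7 genes were lower in microglia (10.0%), 6 of them with an adjusted p under 0.05 (5.78% of all genes). Idi1 differed by -4.33 ± 0.45 in the EAE-vehicle group and by -5.22 ± 0.50 in the EAE-RIPK1inh group, and Hmgcs1 by -3.66 ± 0.50 and -4.53 ± 0.55. The Mvd difference was -0.54 ± 0.84 in the EAE-vehicle group, where it was not called, and -3.36 ± 0.92 in the EAE-RIPK1inh group (adjusted p = 0.0125, limma).

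Pmvk and Ggps1 were called in no group between the cell types. Pmvk, the second kinase of the arm, was lower in microglia by -0.79 in naive mice, with a 95% interval from -2.28 to 0.71. Ggps1 differed by 0.15 (95% interval -1.58 to 1.88) in naive mice and by 0.0044 (-1.41 to 1.41) in the EAE-vehicle group. These intervals leave room for differences of more than 2-fold in either direction for Ggps1. Acat2, the cytosolic thiolase that joins acetyl-CoA units, differed by -1.76 ± 1.07 in naive mice (adjusted p = 0.386), and its groups did not overlap.

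**Figure D1:**
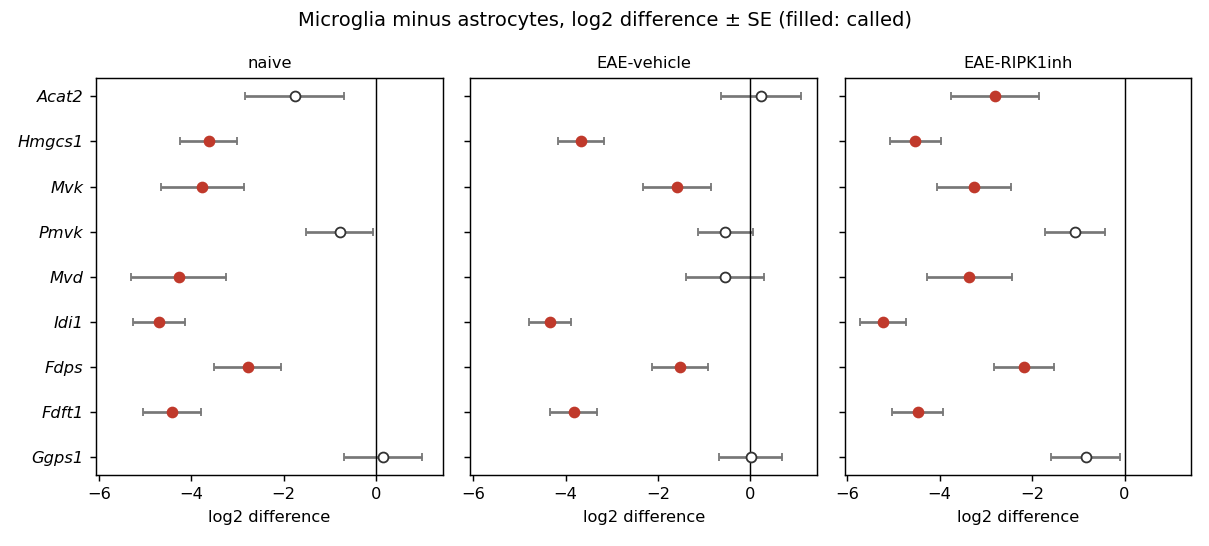
Log2 difference between microglia and astrocytes (x axis, microglia minus astrocytes, with SE) for each gene of the arm in the 3 groups, with filled points for genes called. Idi1, Fdft1 and Hmgcs1 lie below -3.6 in every group, whereas Pmvk and Ggps1 are called in none.

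Some of these genes share sequence or position with other genes. Fdps has 4 processed pseudogenes in the table and Idi1 and Ggps1 have 1 each, so reads could be divided among copies. The highest mean of any of them was 0.98 log2 FPKM, that of Gm8163 in astrocytes. In single libraries the Fdps pseudogenes Gm8163, Gm5873 and Gm3571 reached 4.22, 4.21 and 3.86. Hmgcs1, Mvd, Fdft1 and Ggps1 overlap a gene on the other strand, and the kit does not mark strand. Fdft1 (chr14:63145150-63179578, minus strand) overlaps Ctsb, Ggps1 (chr13:14050659-14063488, minus strand) overlaps Arid4b, and Mvd (chr8:122433601-122443422, minus strand) overlaps Gm20388. The deposited positions of all 9 genes match GENCODE M21 on GRCm38. Fdft1, Ggps1, Hmgcs1, Mvd, Idi1 and Fdps are marked as confounded in the deposited annotation, and Acat2, Mvk and Pmvk are not.

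In astrocytes, EAE with vehicle was compared with the naive state to ask how the arm differed with disease and vehicle dosing together. Mvd was the 1 gene of 9 called lower, and 4.01% of all genes tested were called lower. The naive libraries held 6.87, 5.21, 6.67 and 6.64 log2 FPKM of Mvd, and the 6 EAE-vehicle libraries ran from 0.09 through a median of 2.32 to 5.46. EAE-vehicle replicates 1, 2 and 3 were at 1.53 or less, with no signal in replicate 1, while replicates 4 and 5 reached 4.57 and 5.46 and replicate 5 lay above the lowest naive library. Mvd fell by 3.73 ± 0.99 on the log2 scale (p = 0.00182, adjusted p = 0.142, limma; exact permutation p = 0.019). Without EAE-vehicle replicate 1 it fell by 3.51 ± 1.04 (adjusted p = 0.234, limma), and it was then again the only gene of the arm called.

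The other 8 genes did not pass the test in EAE-vehicle astrocytes. The median log2 fold change over the 9 genes was -0.77, beside 0.03 over all genes tested, and 6 of the 9 values were negative. Without EAE-vehicle replicate 1 the median over the 9 genes was -0.50. Acat2 had the next largest value, -1.61 ± 1.04 (adjusted p = 0.835, limma), and was -0.93 without EAE-vehicle replicate 1. Mvk was at -1.05 ± 0.84, which became -0.35 without that library. Idi1 was at -0.85 ± 0.50 and Fdft1 at -0.77 ± 0.43. Hmgcs1 at the start of the arm was at 0.03 (95% interval -1.18 to 1.25), Pmvk at 0.16 and Ggps1 at 0.07. Without EAE-vehicle replicates 1 and 2, the libraries with the fewest and the most genes with signal in the group, Mvd fell by 2.83 and was still the 1 gene called.

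**Figure D2:**
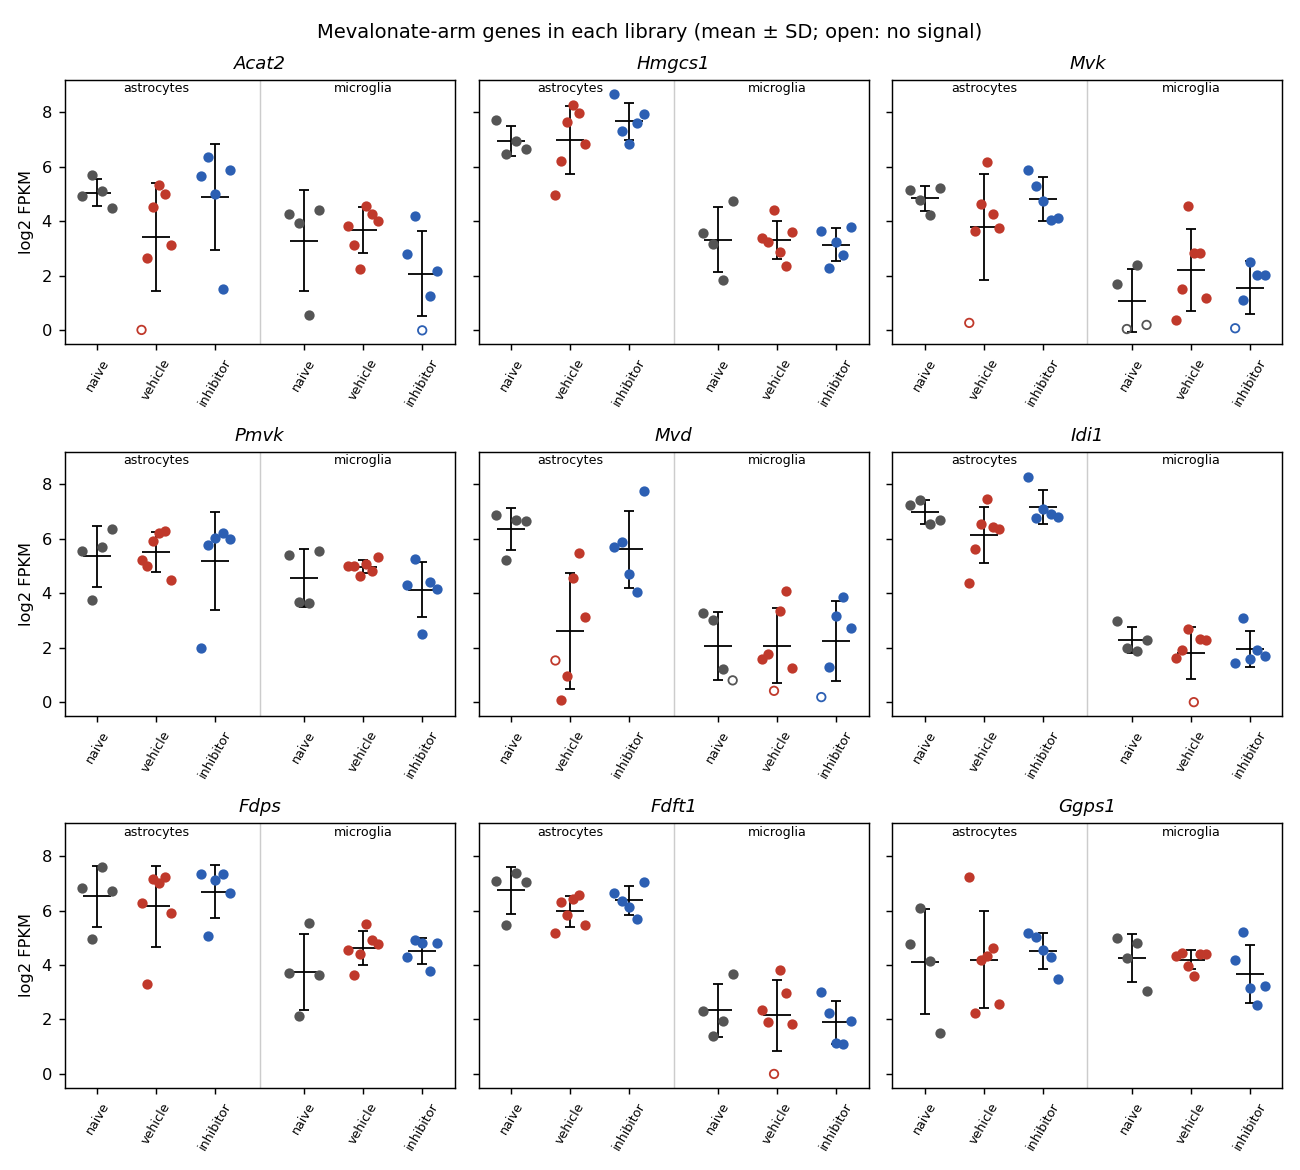
Log2 FPKM (y axis) of the 9 genes in each of the 30 libraries by cell type and group, with mean ± SD as bars and open circles for libraries in which the gene had no signal. Mvd in EAE-vehicle astrocytes spreads from 0.09 to 5.46, and Hmgcs1, Idi1 and Fdft1 sit higher in every astrocyte library than in any microglia library.

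The question of the inhibitor was addressed by comparing EAE-RIPK1inh with EAE-vehicle astrocytes. This comparison and the one with naive astrocytes share the EAE-vehicle libraries, so a low library in that group moves both in opposite directions. Mvd and Idi1 were called higher, 2 genes of 9, and 1.84% of all genes tested were called higher. No gene of the 30718 tested reached an adjusted p under 0.05. Mvd was at 5.68, 5.87, 4.69, 4.05 and 7.74 in the EAE-RIPK1inh libraries, which overlapped the upper EAE-vehicle libraries, and was higher by 2.99 ± 0.93 on the log2 scale (adjusted p = 0.840, limma; exact permutation p = 0.0303). Without EAE-vehicle replicate 1 Mvd was higher by 2.77 ± 0.98 and still called, and without EAE-vehicle replicates 1 and 2 it was higher by 2.08 and was the 1 gene called.

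Idi1 was at 8.28, 6.77, 7.07, 6.93 and 6.79 log2 FPKM in the EAE-RIPK1inh astrocytes and between 4.39 and 7.44 in the EAE-vehicle astrocytes, with a median of 6.40. It was higher by 1.03 ± 0.47 (p = 0.043, adjusted p = 0.840, limma; exact permutation p = 0.0779). The call was lost without EAE-vehicle replicate 1, at 0.69, without EAE-vehicle replicate 2, at 0.93, without EAE-RIPK1inh replicate 1, at 0.76, and without naive replicate 1 or EAE-RIPK1inh replicate 3 or 4. Of the other 7 genes, 6 had positive values, from 0.32 for Ggps1 to 1.45 for Acat2, and Pmvk was at -0.32. The median over the arm was 0.70, beside -0.03 over all genes, and it was 0.57 without EAE-vehicle replicate 1. In the EAE-RIPK1inh against naive comparison none of the 9 genes was called (4.63% of all genes were), the median was -0.02, and Mvd was at -0.74 (95% interval -2.93 to 1.44).

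**Figure D3:**
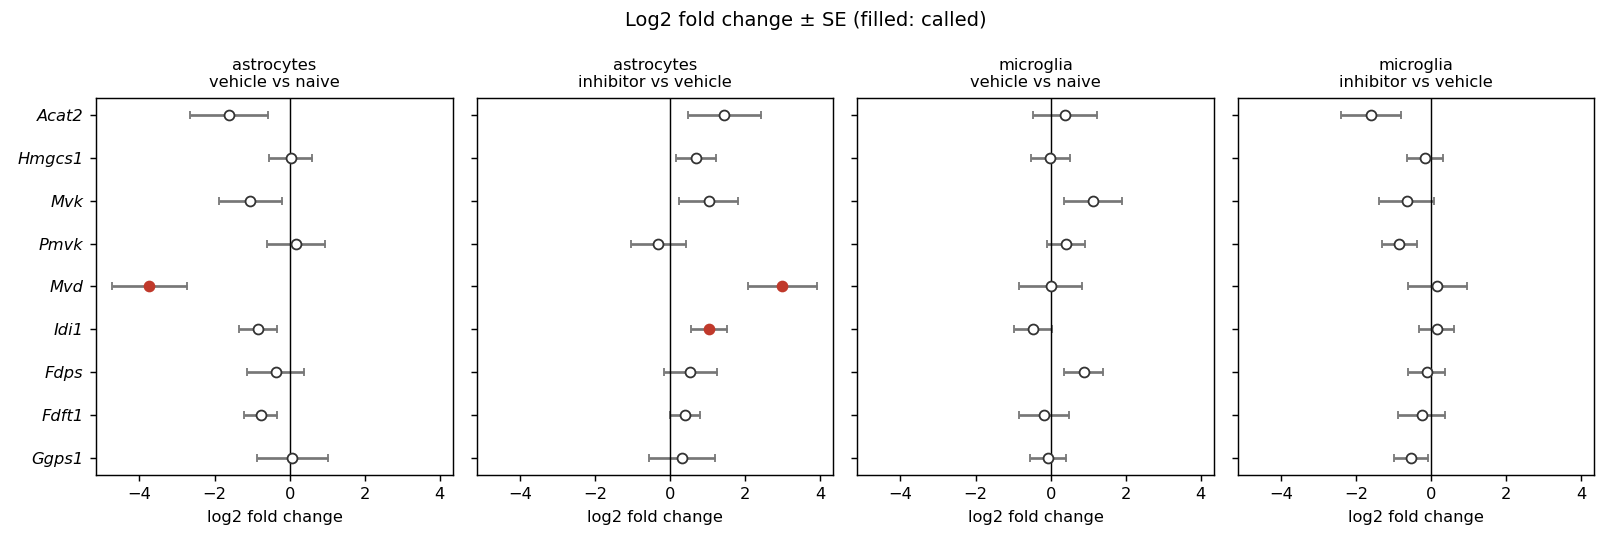
Log2 fold change with SE (x axis) of the 9 genes in 4 comparisons, with filled points for genes called. Mvd at -3.73 and 2.99 in astrocytes stands farthest from 0, and no point is filled in microglia.

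Averaged over the 9 genes, the astrocyte libraries held 5.88 ± 0.32 log2 FPKM in naive mice (SD, n = 4), 4.98 ± 1.00 in EAE-vehicle mice (n = 6) and 5.88 ± 0.36 in EAE-RIPK1inh mice (n = 5). The EAE-vehicle libraries were the most uneven, with 3.90 in replicates 1 and 2 and 6.20 in replicate 4. Replicates 1 and 2 had 6728 and 22109 genes with signal. Markers of other cells moved with the disease in the astrocyte gate. Of 7 oligodendrocyte markers 4 were called higher in EAE-vehicle than naive astrocytes (2.69% of all genes were), and their mean ran from 5.59 to 6.89 in naive, from 5.77 to 9.55 in EAE-vehicle and from 7.15 to 8.83 in EAE-RIPK1inh libraries. Of 8 T cell markers 6 were called higher, with means of 0.15 to 0.70 in naive, 0.91 to 5.78 in EAE-vehicle and 0.82 to 5.85 in EAE-RIPK1inh libraries. Of 9 monocyte and neutrophil markers 6 were higher, as were 3 of 10 microglia markers. Of 8 astrocyte markers 4 were lower and 1, Gfap, was higher. Their part in the Mvd values was not tested.

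Over the 15 astrocyte libraries, genes were ranked by likeness to the mean of the 6 members with signal in every library. Nfasc (Pearson r = 0.85), Rasa3 (0.79) and Hdgf (0.76) came first, and the sterol enzyme Msmo1 (0.72) was the last of the 10 nearest. The members themselves, each left out of the mean, ran from -0.19 for Ggps1 and -0.11 for Pmvk to 0.62 for Mvd. The ranking is over 2885 genes and is a description, since libraries share a normalization and differ in the number of genes with signal.

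In microglia none of the 9 genes was called in any of the 3 comparisons. The EAE-vehicle against naive comparison called 12.0% of all genes, EAE-RIPK1inh against EAE-vehicle 1.76%, and EAE-RIPK1inh against naive 10.1%. Averaged over the arm, microglia held 3.00 ± 0.46 log2 FPKM in naive (SD, n = 4), 3.23 ± 0.29 in EAE-vehicle (n = 6) and 2.80 ± 0.33 in EAE-RIPK1inh mice (n = 5). The medians of the log2 fold changes were -0.0024, -0.26 and -0.33. In EAE-vehicle microglia the values ran from -0.47 for Idi1 to 1.13 for Mvk, whose interval was -0.53 to 2.79, and Fdps was at 0.88 ± 0.52. Without naive microglia replicate 3, whose Fdps was the highest of its group at 5.52, Fdps was at 1.47 and was called. After the inhibitor Acat2 was at -1.59 ± 0.80 and Pmvk at -0.85 ± 0.46, both with an adjusted p of 0.930 (limma). Acat2 was at 2.81, 4.18, 0.00, 1.27 and 2.17 in EAE-RIPK1inh microglia, with no signal in the third, and at 2.25 to 4.56 with EAE-vehicle, so the groups overlapped. Without EAE-RIPK1inh microglia replicate 2 the count called lower rose from 0 to 3, Acat2 at -2.12 and Pmvk at -1.13 among them. Pmvk was at 4.29, 5.26, 2.49, 4.41 and 4.16 with the inhibitor and at 4.63 to 5.33 with vehicle (exact permutation p = 0.0433). Markers also moved with the disease in the microglia gate. Of 10 microglia markers 8 were called lower in EAE-vehicle than naive microglia and 1 higher. Of 9 monocyte and neutrophil markers 5 were called higher and 0 lower, and of 8 T cell markers 0 were called. Over all genes 5.86% were called lower and 6.13% higher. The part of these shifts in the values of the arm was not tested.

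Whether the cell types responded differently was tested as an interaction in 1 fit of all 30 libraries. That fit treats the libraries as independent, although by the paper's numbers of mice both cell types came from the same animals. Which astrocyte and microglia libraries share a mouse is not given by the labels. For the EAE effect Mvd was the 1 gene called, and 4.97% of all genes were called in that direction. The change in microglia minus that in astrocytes was 3.73 ± 1.33 on the log2 scale (adjusted p = 0.253, limma). Mvd was at 3.29, 3.00, 1.23 and 0.80 log2 FPKM in naive microglia, with no signal in replicate 4. From these levels a fall as large as that in astrocytes could not show. The part of this limit in the difference was not tested. For the inhibitor effect Acat2 and Mvd were called, at -3.04 ± 1.29 and -2.82 ± 1.25, both with an adjusted p of 0.948 (limma), and 1.66% of all genes were called in that direction. Without EAE-vehicle astrocyte replicate 1 neither of these was called, at -2.35 for Acat2 and -2.60 for Mvd, whereas the EAE effect of Mvd still differed by 3.51.

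Of 12 genes that act after squalene, 6 were called lower in EAE-vehicle astrocytes, with a median of -1.61 over the list, beside 4.01% and 0.03 over all genes. Dhcr7, the last reductase to cholesterol, fell by 3.75 ± 0.91 (adjusted p = 0.0967, limma), Msmo1 by 3.56, Hsd17b7 by 2.59 and Sqle by 2.26. After the inhibitor 2 of the 12, Msmo1 at 2.56 and Lss at 2.02, were higher, beside 1.84% of all genes. Both counts depended on single libraries. The count with EAE was 2 without naive replicate 3 and 3 without naive replicate 4. The count after the inhibitor was 0 without EAE-vehicle replicate 1 or EAE-RIPK1inh replicate 5, 1 without EAE-vehicle replicate 3 or EAE-RIPK1inh replicate 1, and 4 or 5 without EAE-vehicle replicate 4 or 5. Without EAE-vehicle replicates 1 and 2 together the counts were 2 and 0.

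Of 9 genes tested that regulate SREBP-2 or are its targets, 2 were called lower in EAE-vehicle astrocytes, beside 4.01% of all genes. The median of that list was -1.06, with 8 values negative, and 0 had an adjusted p under 0.05 (limma). Insig1, which retains SREBP-2 in the endoplasmic reticulum when sterols are plentiful, was lower, at -1.64. Of 5 genes of acetyl-CoA supply and ketone bodies tested, Acss2, which makes acetyl-CoA from acetate, fell by 1.82 ± 0.61 with EAE (adjusted p = 0.351, limma). Acss2 was higher by 1.25 ± 0.57 with the inhibitor (adjusted p = 0.840, limma), a call lost in 9 of 15 fits that left out 1 library, where it ran from 0.94 to 1.48. None of the 10 genes that use isoprenoids outside sterols was called with EAE in astrocytes, beside 4.01% of all genes lower and 2.69% higher. That list includes the prenyltransferase subunits, and its median in EAE-vehicle astrocytes was 0.38.

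**Figure D4:**
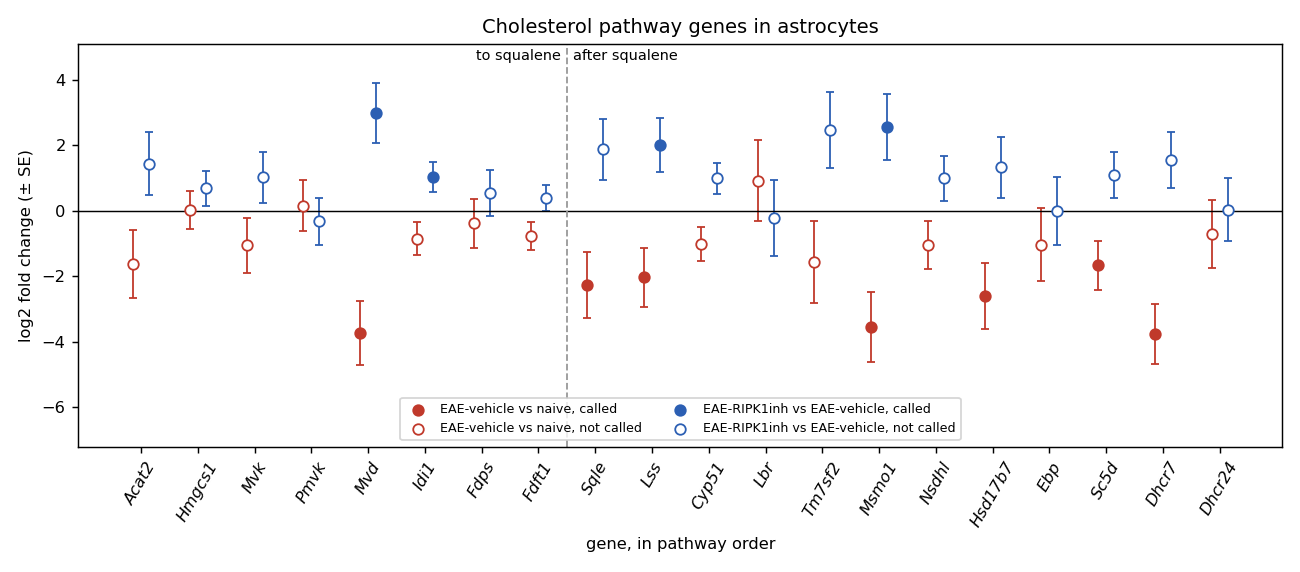
Log2 fold change with SE (y axis) in astrocytes for genes between acetyl-CoA and cholesterol in pathway order (x axis), for EAE-vehicle against naive in red and EAE-RIPK1inh against EAE-vehicle in blue, with filled points for genes called. To the left of squalene only Mvd and Idi1 are filled, and to the right Dhcr7 and Msmo1 have the lowest red points.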

How the data were processed

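RNA-seq of 30 libraries of mouse spinal cord astrocytes and microglia was used as 1 deposited table. The authors quantified the reads as FPKM in OmicSoft Array Studio, named the table as one kept at an FPKM of at least 1, and deposited log2 values that were quantile-normalized over the libraries. The aligner and the offset before the logarithm are not given in the sources used here, and with no counts the sequencing depth is unknown. Groups came from the labels. Libraries are from separate mice within a group, and p-values measure the spread between these libraries. Within each cell type, limma 3.58.1 (R 4.3.3) was fitted to the 3 groups with a mean-variance trend, and a 30-library fit gave cell-type differences and interactions, treating libraries of the 2 cell types as independent. P-values were adjusted by Benjamini-Hochberg over all genes tested (30718 in astrocytes, 28958 in microglia, 30952 together). Exact two-sided permutation tests used SciPy 1.17.1. The model was tested on simulated data. All 9 members were named in the comparisons, other list genes only where called (at most 4 per list, largest change first), and some genes are not reported here; members and lists were chosen with earlier results of these data known. Alternatives covered a filter at a mean log2 value of 1, a pseudocount of 1, protein-coding genes, values without signal set to 0, median centring, array weights, no trend, a replicate block, each library left out, and adjusted p. Libraries left out after seeing the data are EAE-vehicle astrocyte replicates 1 and 2 together.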

Additional observations from a re-analysis of the deposited data

Results flagged for a closer look

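Among 54 sets of libraries (9 genes in 6 groups), 6 held a library far from the rest, and chance gives about 1 in 20. In naive astrocytes Mvd was lowest in replicate 2, at 5.21 log2 FPKM. In EAE-RIPK1inh astrocytes Acat2 was lowest in replicate 4 at 1.51, Pmvk lowest in replicate 1 at 1.99, and Idi1 highest in replicate 1 at 8.28. In EAE-vehicle astrocytes Fdps was lowest in replicate 2 at 3.29, and in naive microglia Acat2 was lowest in replicate 3 at 0.55.

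By the interaction test the response to EAE differed between microglia and astrocytes for Mvd, by 3.73 on the log2 scale. The naive microglia libraries held 3.29 log2 FPKM or less of Mvd, too little for a fall as large as that in astrocytes to show. The response to the inhibitor differed for Acat2, by -3.04, and for Mvd, by -2.82. None of these had an adjusted p under 0.05 in limma.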

How the results depend on the processing

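Mvd stayed called in astrocytes with EAE and after the inhibitor with each single library left out and with a replicate block, where it was at -4.47 and 3.09. Within a cell type the block joined same-numbered libraries of different groups, which are different mice. Deviations of such libraries from their group means had a Pearson r from -0.16 to 0.24, over 0.1 in 4 of 26 pairs. Across cell types r ran from -0.035 to 0.13, over 0.1 in 1 of 15 pairs. Whether same-numbered astrocyte and microglia libraries share a mouse is not given by the labels. With the replicate block the count called after the inhibitor was 1 in astrocytes and 1 in microglia, and the count for the cell-type difference in the EAE effect was 2. Hmgcs1 turned to -0.089 with EAE and Ggps1 to -0.0062 after the inhibitor under the block. The Acss2 call after the inhibitor was lost under the block (0.94), median centring, the fit of 2 groups and without EAE-vehicle replicates 1 and 2. Array weights, which give uneven libraries less weight, moved the most counts. They gave 2 genes called with EAE, 0 after the inhibitor and 1 against naive in astrocytes, 3 after the inhibitor and 1 against naive in microglia, and 0 for each cell-type difference in effect. Under them Mvd was at 1.51 and no longer called after the inhibitor, Pmvk turned to -0.047 with EAE, and Acat2, Hmgcs1 and Mvk turned to -0.27, -0.049 and -0.041 after the inhibitor, while Acat2 turned to -0.46 between cell types with vehicle. At an adjusted p under 0.05, 0 genes were called in either astrocyte comparison with vehicle, 0 for each difference in effect, and 3 between cell types with vehicle. With only the 2 groups compared, 1 gene was called after the inhibitor in each cell type, and 1 was called in microglia when genes with a mean log2 under 1 were dropped. Centring libraries on their median turned Acat2 to -0.067 and Ggps1 to -0.30 between cell types with vehicle, and a pseudocount of 1 turned Ggps1 to -0.037. Without EAE-vehicle astrocyte replicates 1 and 2, 1 gene was called after the inhibitor, Fdps turned to 0.31 with EAE and -0.14 after the inhibitor, and Ggps1 turned to -0.20 with EAE. The cause of these changes was not tested.

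With each library left out in turn, the count called in astrocytes ran from 1 to 2 with EAE and from 1 to 2 after the inhibitor. In microglia it ran from 0 to 1 with EAE, 0 to 3 after the inhibitor and 0 to 2 against naive, and the median with EAE ran from -0.29 to 0.46. For the cell-type difference the count ran from 1 to 2 in the EAE effect and from 0 to 3 in the inhibitor effect. Genes near 0 changed sign. With EAE in astrocytes Hmgcs1 ran from -0.23 to 0.43, Pmvk from -0.37 to 0.50, Fdps from -0.90 to 0.20 and Ggps1 from -0.80 to 0.73. After the inhibitor Pmvk ran from -0.57 to 0.48, Fdps from -0.032 to 0.95 and Ggps1 from -0.077 to 0.92. Between cell types Ggps1 ran from -0.72 to 0.81 in naive mice and from -0.39 to 0.61 with vehicle, where Acat2 ran from -0.45 to 0.61 and Mvd from -1.05 to 0.029. With no counts deposited, what depth limits could not be computed.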
